A study of Mus musculus with 6 samples.

Results

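Retinoic acid synthesis and response genes were followed through open chromatin of the embryonic mouse retina. The group holds 10 of the 15836 protein-coding genes with a peak in any library. They were taken as a list of names: Aldh1a1, Aldh1a2 and Aldh1a3 for synthesis, Cyp26a1 and Cyp26c1 for breakdown, Rara, Rarb, Rarg and Rxra for the receptors, and Crabp1 for binding. A peak was given to a gene if its summit lay inside the gene, or if that gene's end was the nearest protein-coding gene end within 100 kb. By this rule the 10 genes had 60 of 46780 consensus regions, a consensus region being the stretch covered by overlapping peaks of any of the 6 libraries. Chromatin was assayed by ATAC-seq, which tags accessible DNA with the Tn5 transposase, in retinas of C57BL/6 embryos at E14.5 (embryonic day). The 3 SE/SE libraries came from SE/SE animals, which carry the mutated Atoh7 shadow enhancer on both alleles, and the 3 wild-type (WT) libraries from Atoh7 +/+ animals. Each library was the retinal pair of an individual animal, and no group carried a transgene, Cre driver or treatment in the labels. Atoh7 encodes a transcription factor needed for retinal ganglion cells, and a shadow enhancer adds to the work of a primary one.

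Retinoic acid is made from vitamin A: retinol is oxidised to retinaldehyde, and the Aldh1a enzymes oxidise retinaldehyde to retinoic acid. Cyp26 enzymes of the cytochrome P450 family break it down, and Crabp1 binds it in the cytoplasm. In the nucleus it binds the receptors encoded by Rara, Rarb and Rarg, which act on DNA as partners of retinoid X receptors such as Rxra. In the embryonic mouse eye, Aldh1a1 is known from the dorsal retina and Aldh1a3 from the ventral retina, with Cyp26a1 and Cyp26c1 in a stripe between them that keeps retinoic acid low. Rarb and Cyp26a1 are textbook targets that retinoic acid itself induces through elements close to their starts.

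The peak lists of SE/SE 1, 2 and 3 held 39115, 42722 and 44242 peaks, and those of WT 1, 2 and 3 held 31340, 34797 and 27873. Read depth is unknown. SE/SE libraries were amplified for 15 to 16 PCR cycles and WT libraries for 17 to 19, so list length, amplification and genotype cannot be told apart. At Atoh7, 2 regions on chromosome 10 within 15 kb of the gene had a peak in 3 of 3 WT libraries, in 0 of 3 SE/SE libraries and in the joint WT list, with none in the joint SE/SE list. Of 9 neural retina marker genes, 9, 8 and 9 had a gene-end peak (1 kb or less from either end) in SE/SE 1, 2 and 3, against 9, 9 and 8 in WT 1, 2 and 3. By number of peaks, the same 9 genes had 87, 96 and 94 in SE/SE and 78, 87 and 69 in WT, so that SE/SE 1 and WT 2 were level. Markers of other tissues also had more peaks in SE/SE. By gene ends, in every library 3 of 6 pigment epithelium, 1 of 5 lens and 1 of 5 microglia and blood markers had a gene-end peak. Gene-end counts were 2, 2 and 2 of 5 in SE/SE and 1, 1 and 1 in WT for endothelial markers, and 6, 6 and 6 of 6 in SE/SE and 4, 5 and 5 in WT for periocular mesenchyme markers. Peaks of the 5 endothelial markers numbered 17, 21 and 22 in SE/SE, against 7, 12 and 4 in WT. Peaks of 6 periocular mesenchyme markers numbered 24, 26 and 29 in SE/SE and 21, 19 and 17 in WT, and those of 6 pigment epithelium markers 20, 22 and 22 in SE/SE and 13, 16 and 13 in WT. Every SE/SE library stood above every WT library in each of these lists. The same was true of all genes together, which had 37860, 41102 and 42440 peaks in SE/SE and 30831, 33856 and 27629 in WT. Peaks of 5 microglia and blood markers numbered 14, 14 and 15 in SE/SE and 9, 9 and 7 in WT, and those of 5 lens markers 2, 3 and 4 in SE/SE and 1, 1 and 1 in WT. No peak was assigned to Rpe65, Cryab, Mip, Lim2, Tek or Hbb-bt in any library. The lens marker with a gene-end peak was Mip, and no peak there was assigned to Mip by its summit. What part other cell types have in the values below was not tested, and in such bulk samples more cells of a type and more open chromatin per cell cannot be told apart.

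Together the 10 genes had more peaks in SE/SE than in WT retinas. SE/SE 1, 2 and 3 had 44, 50 and 57 peaks at these genes, and WT 1, 2 and 3 had 26, 34 and 26. Every SE/SE library stood above every WT library. The means were 50.3 ± 6.51 peaks in SE/SE and 28.7 ± 4.62 in WT (SD, n = 3 each), a ratio of 1.76, while the peaks of all genes together gave a ratio of 1.32. Gene by gene, 7 of the 10 had more peaks in every SE/SE than in every WT library (15.2% of all 15836 genes did), and none had more in every WT library (0.852% of all genes). Peak-rich genes do so more often: among the 7871 genes whose mean number of peaks lay between the members' lowest and highest, 1.5 and 9.5, the share was 24.3%. The median difference, SE/SE minus WT, was 2.17 peaks for the members, 0.667 for those 7871 genes and 0.333 for all genes.

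These differences did not pass a test that accounts for the number of genes. An exact two-sided permutation test with 3 libraries against 3 cannot give a p under 0.1, which the 7 genes had. Adjusted over all genes by the Benjamini-Hochberg method it came to 0.622, and 0 of 15836 genes passed (0.0%), with 0 at an unadjusted p under 0.05. Cyp26a1, Cyp26c1 and Crabp1, whose groups overlapped, had an exact permutation p of 0.3. List length moves with these counts. When every list was cut to its 27873 strongest peaks, the length of the shortest, 0 of the 10 genes had more peaks in every SE/SE library (1.75% of all genes) and 0 in every WT library (1.98% of all genes). With whole lists but genes of every kind, noncoding ones included, competing for a peak, 5 of the 10 genes had more peaks in every SE/SE library. Aldh1a2 and Aldh1a3 were no longer among them. The share over all genes under that rule is not given here.

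**Figure D1:**
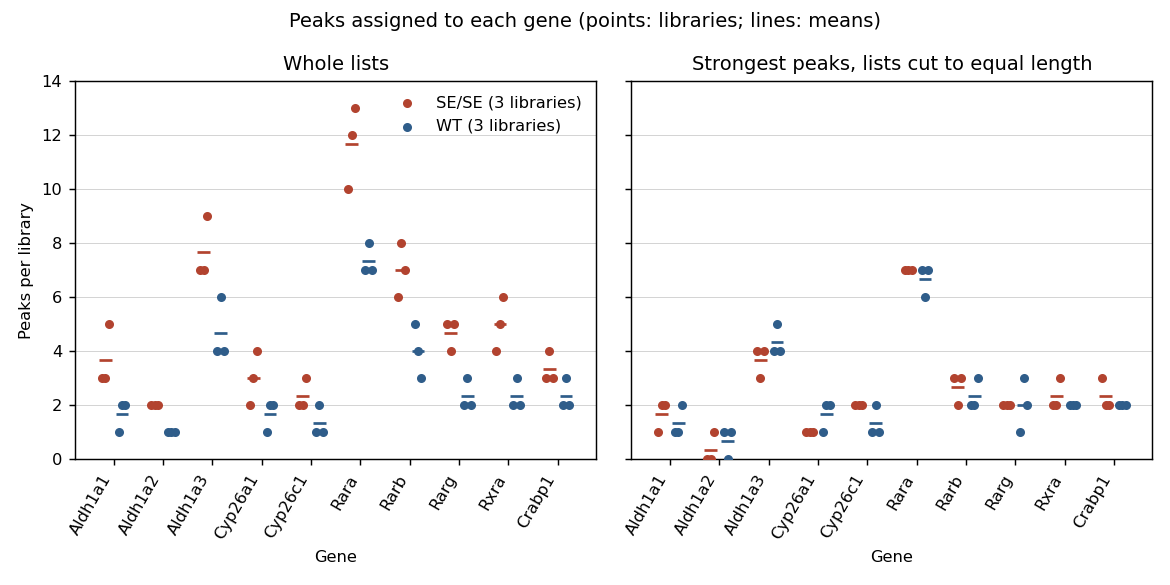
Number of peaks per library (y axis) at each of the 10 genes (x axis), from whole lists on the left and from lists cut to equal length on the right. Red points are the 3 SE/SE libraries, blue points the 3 WT libraries, and short lines their means. On the left Rara has 10, 12 and 13 peaks in SE/SE against 7, 8 and 7 in WT. On the right it has 7, 7 and 7 in SE/SE against 7, 6 and 7 in WT.

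Most member regions were present either in all libraries or mainly in SE/SE. The members' regions closest to the 100 kb limit lay 90551 bp from Rarb and 89344 and 88951 bp from Cyp26a1, and a search to 200 kb found none just outside it. A peak in all 6 libraries marked 21 of the 60 regions (35.0%, against 52.1% of all regions). A peak in all 3 SE/SE and no WT library, called SE/SE-only here, marked 9 regions (15.0%, against 8.23% of all regions). The opposite pattern, all 3 WT and no SE/SE library, was found at 0 member regions (0.0321% of all regions). The remaining 30 regions were partly shared, and 13 of them had a peak in a lone SE/SE library (21.7% of the 60, against 11.2% of all regions). SE/SE 1, 2 and 3 had 0, 4 and 9 of these, against 363, 1773 and 3113 over all regions. No member region with a WT peak had peaks in fewer than 2 SE/SE libraries. Over all regions each such pattern was rare too, at 0.787% or less. Of the 12 regions found in all 3 SE/SE libraries and in 1 or 2 WT libraries, WT 2, the longest WT list, had 11, and WT 1 and WT 3 had 4 each. At equal list length the members had 35 regions, 17 of them in all libraries (72.4% of all regions then) and 1 SE/SE-only (1.38% of all regions then). That 1 region lies inside Rara.

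Strength was read as a percentile: a peak's deposited signal value was ranked within its own list, 100 being the strongest. Member peaks ranked below the middle of their lists. Their median percentiles were 36.5, 32.6 and 35.6 in SE/SE 1, 2 and 3, against 41.2, 33.4 and 36.6 in WT 1, 2 and 3. The medians over all consensus regions were 51.6, 50.6 and 50.5 in SE/SE and 53.6, 52.5 and 53.8 in WT. Member regions also lay farther from gene ends, with 15.0% within 1 kb of one, against 29.9% of all regions.

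**Figure D2:**
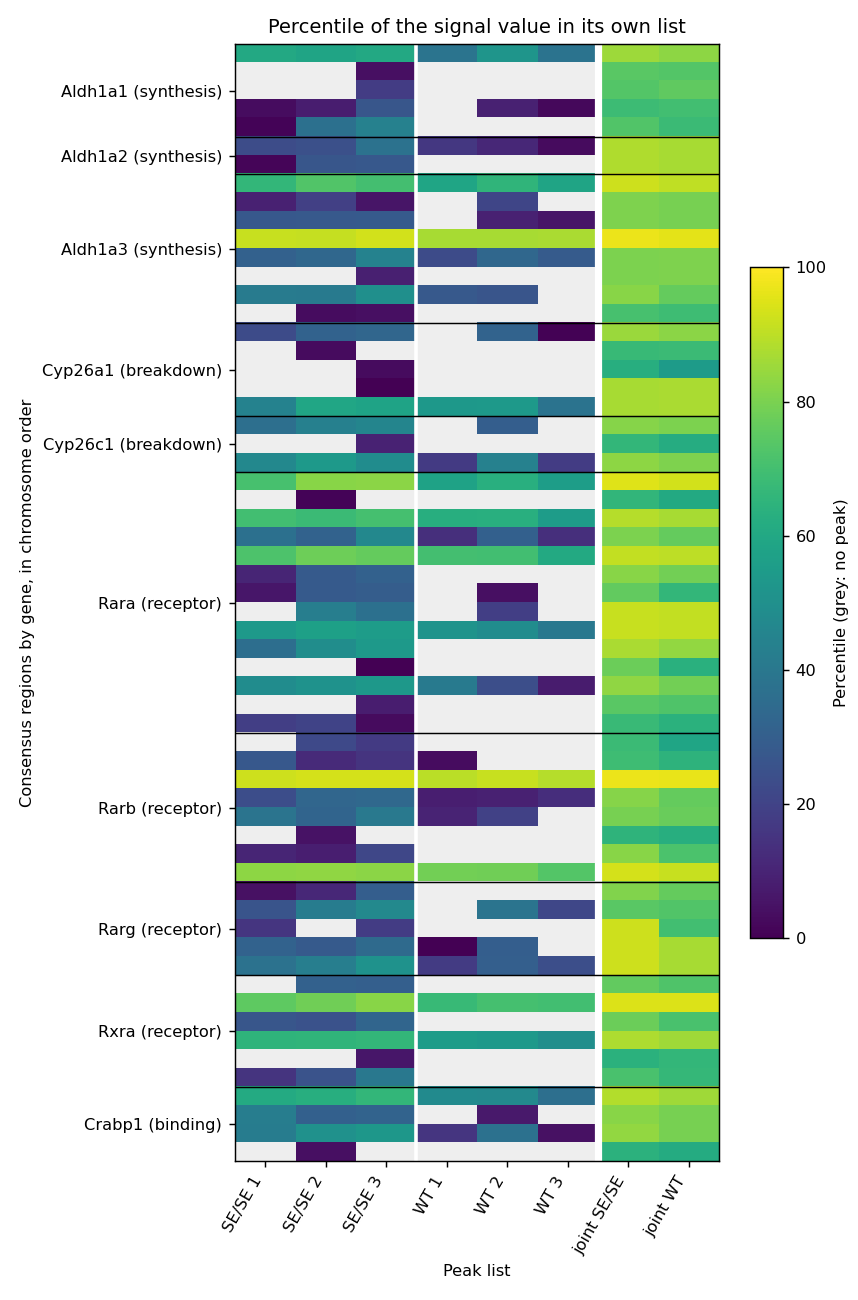
Percentile of the signal value in its own list (colour, 0 to 100; grey where the list has no peak) for the 60 consensus regions (rows, by gene and in chromosome order) in the 3 SE/SE libraries, the 3 WT libraries and the 2 joint lists (columns). Bright rows across all libraries are the Rarb start and an Aldh1a3 region at 17825 bp from the gene. The 9 rows filled in all 3 SE/SE columns and grey in all 3 WT columns are the SE/SE-only regions, and both joint columns are filled in every row.

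The synthesis genes had 15 regions, led by Aldh1a3. Peaks at the 3 genes numbered 12, 12 and 16 in SE/SE 1, 2 and 3, against 6, 9 and 7 in WT 1, 2 and 3, a ratio of the means of 1.82. Aldh1a3, at chr7:66390892-66427477, held 7, 7 and 9 of these peaks in SE/SE and 4, 6 and 4 in WT. Its strongest region was not at the gene but at chr7:66444817-66445957, 17825 bp beyond the higher-coordinate end. There the percentiles were 91.5, 91.3 and 93.1 in SE/SE 1, 2 and 3, against 86.8, 87.0 and 87.1 in WT 1, 2 and 3. The peak was among the strongest 10% of the list in every SE/SE library and just short of it in every WT library.

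At the gene end itself, chr7:66427225-66428161, Aldh1a3 had percentiles of 66.3, 72.9 and 70.1 in SE/SE, against 58.6, 65.6 and 58.4 in WT. A weaker region at chr7:66450106-66450285 ranked at 31.2, 33.4 and 44.4 in SE/SE and at 23.0, 33.4 and 28.8 in WT, so that the groups overlapped (exact permutation p = 0.3). All 7 Aldh1a3 regions outside the gene lie nearer to a noncoding gene, Gm33515, than to Aldh1a3. They belong to Aldh1a3 only as the nearest protein-coding gene, and with genes of every kind allowed to compete the gene's difference in peaks was 0.

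Aldh1a1, at chr19:20492583-20643463, had 3, 3 and 5 peaks in SE/SE and 1, 2 and 2 in WT, all inside the gene. Its strongest region, chr19:20506999-20507373, lies 14567 bp inside. Its percentiles were 60.5, 58.2 and 60.4 in SE/SE, against 38.4, 52.3 and 38.2 in WT. RefSeq lists a pair of starts for this gene in GRCm38.p6, the upstream one without a peak in any library or joint list. The downstream start, printed here because it carries the only start peak of the gene, overlapped a region at chr19:20601814-20601971. On the plus strand, its window runs chr19:20601718-20602017, with the bases inside that region in capitals.
Aldh1a1: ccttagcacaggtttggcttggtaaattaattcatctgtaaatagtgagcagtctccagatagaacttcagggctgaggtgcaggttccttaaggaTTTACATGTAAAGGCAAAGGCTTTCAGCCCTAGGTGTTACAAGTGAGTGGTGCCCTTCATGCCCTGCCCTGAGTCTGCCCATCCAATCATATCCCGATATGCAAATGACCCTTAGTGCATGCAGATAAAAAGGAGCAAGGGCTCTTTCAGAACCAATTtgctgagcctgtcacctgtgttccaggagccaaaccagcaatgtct
The start region ranked at 3.25, 8.15 and 26.8 in SE/SE 1, 2 and 3, against 9.01 and 2.08 in WT 2 and 3, with no peak in WT 1. These are low ranks in every list that has the peak, and the groups overlap. A further region 2 kb into the gene from there, chr19:20603992-20604197, was SE/SE-only, at percentiles 1.16, 37.1 and 44.0.

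Aldh1a2, at chr9:71215789-71296243, had 2 peaks in each SE/SE library and 1 in each WT library. The lncRNA gene Gm3458 overlaps the outer of its 2 regions, and with genes of every kind competing the difference was 0.333 peaks, with an exact permutation p of 1.0. A region 449 bp before the gene, chr9:71215234-71215410, had a peak in all 6 libraries, at percentiles 23.1, 24.6 and 37.9 in SE/SE and 16.0, 10.9 and 3.07 in WT. The second region, chr9:71215505-71215925, covers the start and had a peak in SE/SE 1, 2 and 3, at percentiles 1.32, 26.9 and 27.7, and in no WT library. Both joint lists join the 2 regions into 1 peak, at percentile 88.1 in the joint SE/SE list and 86.8 in the joint WT list. The start window of Aldh1a2 (RefSeq, GRCm38.p6, plus strand, chr9:71215539-71215838) is shown because it is the only member window with a peak in all 3 SE/SE libraries and no WT library. Capitals mark the bases inside the SE/SE-only region, which are all of them.
Aldh1a2: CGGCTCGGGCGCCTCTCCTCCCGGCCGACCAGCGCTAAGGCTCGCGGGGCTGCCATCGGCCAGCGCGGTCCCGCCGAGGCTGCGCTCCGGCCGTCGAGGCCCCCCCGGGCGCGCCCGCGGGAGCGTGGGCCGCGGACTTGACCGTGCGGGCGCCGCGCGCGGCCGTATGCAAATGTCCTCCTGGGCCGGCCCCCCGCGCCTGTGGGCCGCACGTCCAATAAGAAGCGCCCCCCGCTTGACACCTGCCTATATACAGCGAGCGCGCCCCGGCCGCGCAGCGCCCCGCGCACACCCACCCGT
Its GC content was 78.0%, against a median of 56.3% over all 21262 windows, and it held 50 CpG, against a median of 13.

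The breakdown genes lie side by side on chromosome 19 and had 8 regions, none of them SE/SE-only. Peaks at the pair numbered 4, 5 and 7 in SE/SE 1, 2 and 3, against 2, 4 and 3 in WT 1, 2 and 3, a ratio of the means of 1.78, and SE/SE 1 and WT 2 both had 4. For each gene alone too the groups overlapped, with 2, 3 and 4 peaks in SE/SE against 1, 2 and 2 in WT at Cyp26a1, and 2, 2 and 3 against 1, 2 and 1 at Cyp26c1. Cyp26c1, at chr19:37685112-37693320, had its shared region at its higher-coordinate end, chr19:37692844-37693211, at percentiles 46.6, 54.1 and 48.7 in SE/SE and 17.0, 44.1 and 17.8 in WT. Its inner region chr19:37687058-37687336 ranked at 36.5, 43.6 and 45.5 in SE/SE and at 30.0 in WT 2, with no peak in WT 1 or WT 3. WT 2 is thus the WT library closest to SE/SE at both places. No library had a peak at the annotated Cyp26c1 start.

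At Cyp26a1, chr19:37697738-37701536, the start region chr19:37697845-37698036 ranked at 22.8, 31.5 and 33.2 in SE/SE 1, 2 and 3, against 31.9 and 0.52 in WT 2 and 3, with no peak in WT 1. The groups overlap, since WT 2 stood above SE/SE 1 and 2. Cyp26a1 also has a distant shared region, chr19:37790711-37791194, which lies 89344 bp from the gene and nearer to a pseudogene. It ranked at 44.3, 59.3 and 58.2 in SE/SE and at 53.4, 53.5 and 38.2 in WT (exact permutation p = 0.5). Its mean peak width was lower in SE/SE, at 383 ± 42.3 bp, than in WT, at 432 ± 24.4 bp (SD, n = 3 each). The other shared member regions were wider in SE/SE on average. Widths over all shared regions were not taken, so this is not read as a trait of these genes.

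The receptor genes had 33 regions, 12 of them in all libraries and 7 SE/SE-only (21.2%, against 8.23% of all regions). Peaks numbered 25, 29 and 31 in SE/SE 1, 2 and 3, against 16, 18 and 14 in WT 1, 2 and 3, a ratio of the means of 1.77. Every SE/SE library stood above every WT library at each of the 4 genes. The same held at 15.2% of all genes and at 24.3% of genes in the members' range of mean peak number. At equal list length it held at none of the 4. The ratio was close to that of the synthesis and breakdown genes, and the 3 classes were not tested against each other, since genes of a class are not replicates.

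Rarb, the receptor gene that retinoic acid induces, had the member region that ranked highest over the 6 libraries, at its listed start. The gene spans 651 kb at chr14:16430839-17082331, and the start in the RefSeq table lies well inside that span, on the minus strand. The start region, chr14:16574872-16575937, ranked at 92.5, 93.4 and 93.4 in SE/SE 1, 2 and 3, against 89.6, 91.6 and 89.1 in WT 1, 2 and 3. All 6 libraries thus placed it near the top of their lists, with the SE/SE libraries above WT. Peak widths there were 1034, 1066 and 1056 bp in SE/SE and 1001, 1025 and 1011 bp in WT. The window around the start (RefSeq, GRCm38.p6, minus strand, chr14:16575427-16575726) is shown with a retinoic acid response element in capitals.
Rarb: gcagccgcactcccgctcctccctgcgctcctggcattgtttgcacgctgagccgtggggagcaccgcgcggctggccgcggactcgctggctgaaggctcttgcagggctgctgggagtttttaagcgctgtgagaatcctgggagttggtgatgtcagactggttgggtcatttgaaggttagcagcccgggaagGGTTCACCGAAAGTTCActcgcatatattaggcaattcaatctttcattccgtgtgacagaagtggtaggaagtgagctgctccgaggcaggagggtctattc
The capitals are a DR5 element, a pair of hexamers in direct repeat with 5 bases between them, the arrangement to which retinoic acid receptors with a retinoid X receptor are known to bind. It lies at chr14:16575513-16575529, from 53 to 37 bases before the start. The element was inside a peak in 6 of 6 libraries and in both joint lists, and the library summits lay between 190 and 145 bp before the start.

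Cyp26a1, the other gene known to be induced this way, also held a DR5 element next to its start (RefSeq, GRCm38.p6, plus strand, chr19:37697558-37697857), in capitals here for comparison with Rarb.
Cyp26a1: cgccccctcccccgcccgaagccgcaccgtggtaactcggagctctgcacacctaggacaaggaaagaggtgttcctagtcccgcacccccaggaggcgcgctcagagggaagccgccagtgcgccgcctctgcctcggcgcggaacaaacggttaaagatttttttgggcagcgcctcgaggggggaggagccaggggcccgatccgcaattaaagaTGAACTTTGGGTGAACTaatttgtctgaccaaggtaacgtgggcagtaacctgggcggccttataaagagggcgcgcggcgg
On the opposite strand the element reads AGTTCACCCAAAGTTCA, beside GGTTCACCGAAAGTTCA at Rarb. It lies at chr19:37697776-37697792, from 32 to 16 bases before the start. Unlike the Rarb element it was inside no library's peak. The nearest peak edge lay 68, 58 and 65 bp away in SE/SE 1, 2 and 3, against 53 and 90 bp in WT 2 and 3 and 4602 bp in WT 1. The wider joint peaks, at percentile 85.0 in the SE/SE list and 82.6 in the WT list, both covered it.

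The element search covered both strands of all 21262 start windows of 300 bases in the RefSeq table, from 250 bases before to 50 after a start. It covered 15 windows of 9 members; Aldh1a3 is not among them. The hexamer AGGTCA, repeated directly with 5, 2 or 1 bases of any kind between the copies, was in 1, 0 and 10 windows and in no member window. Their looser forms, called DR5, DR2 and DR1 elements, allow A or G at the first base and G or T at the third base of each hexamer. DR5 elements were in 17 windows (0.08%), 2 of them the Rarb and Cyp26a1 windows. DR2 elements were in 19 windows (0.0894%) and DR1 elements in 39 (0.183%), none of them a member's. A match is a string of letters and not a measured binding site.

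**Figure D3:**
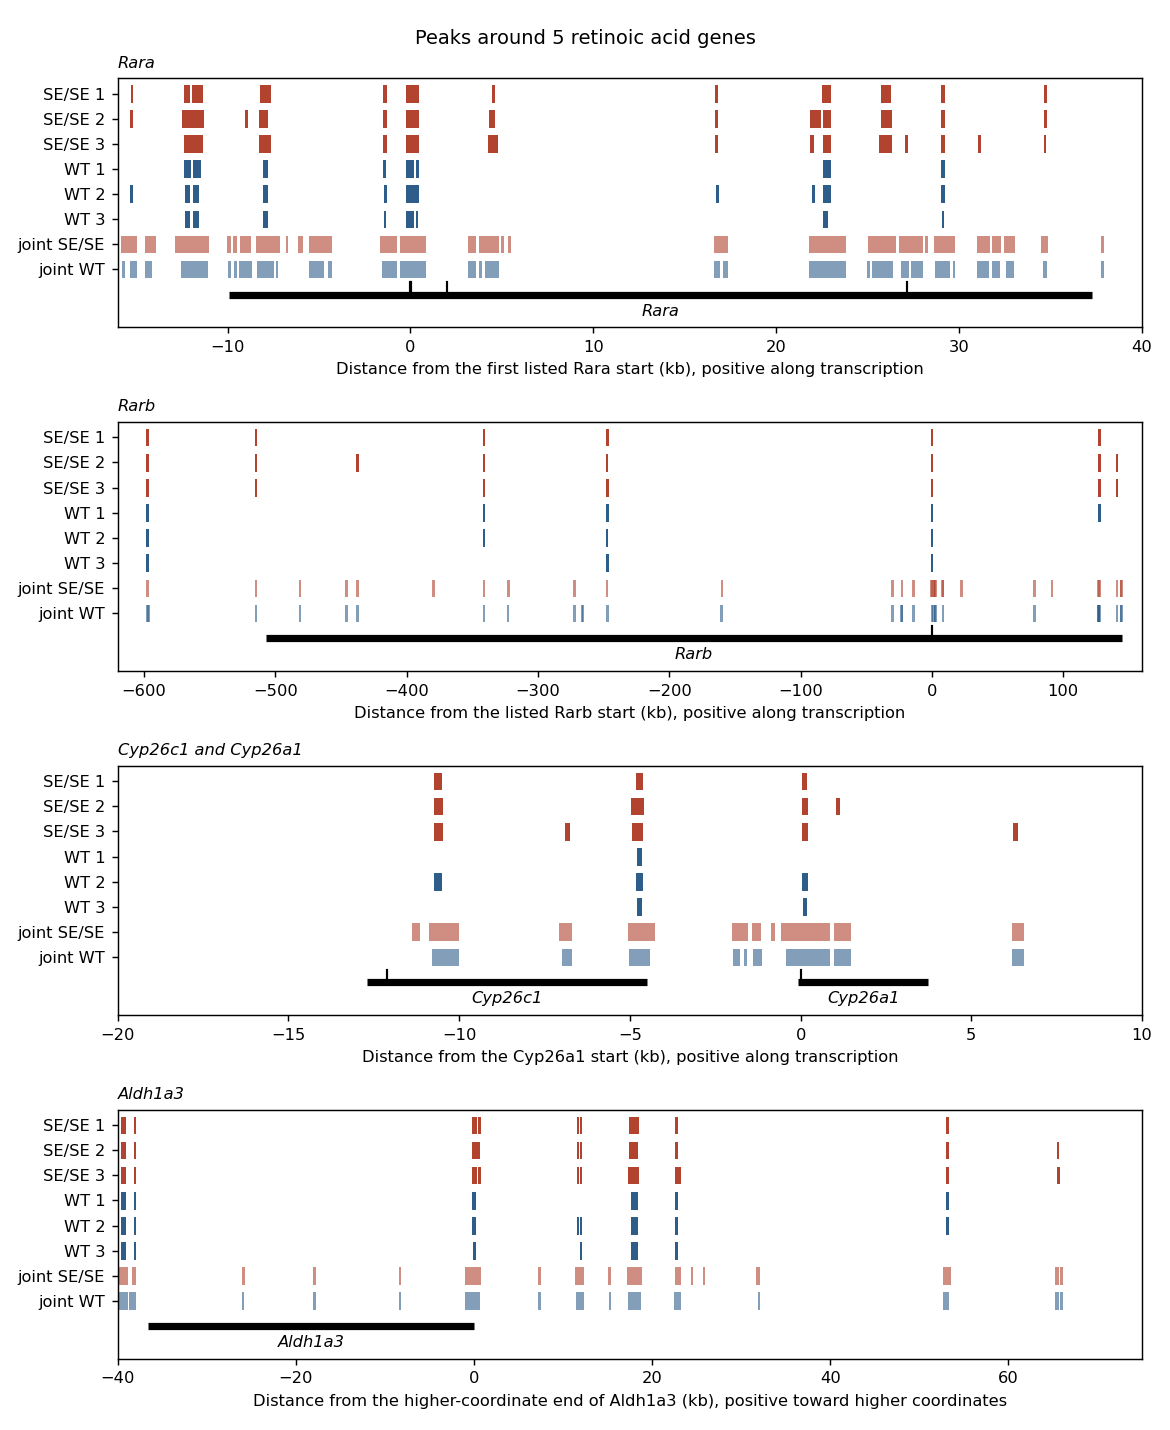
Peaks of each list (rows: SE/SE 1 to 3, WT 1 to 3, joint SE/SE, joint WT; bars from peak start to end, widened where too thin to see) against distance in kb from a start of Rara, Rarb or Cyp26a1, or from the higher-coordinate end of Aldh1a3. Black bars are genes and black ticks listed starts; peaks of neighbouring genes are drawn too. The Rarb start has a peak in all 6 libraries, whereas in the Cyp26a1 map WT 1 lacks the start peak.

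Elsewhere Rarb was sparse. It had 6, 8 and 7 peaks in SE/SE and 5, 4 and 3 in WT across its whole span and surroundings. A region 90551 bp outside the gene, chr14:17172376-17173083, ranked at 82.8, 83.2 and 82.8 in SE/SE and at 78.6, 78.1 and 73.2 in WT, and a transcribed pseudogene, Pou5f1-rs6, lies nearer to it. The SE/SE-only region of Rarb, chr14:17090004-17090321, was weak, at percentiles 10.2, 8.38 and 21.2. The joint lists, which each had 30 Rarb peaks, placed 22 of them (73.3%) where no library had one.

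Rara, at chr11:98927800-98974942, had the most peaks of the 10 genes, 10, 12 and 13 in SE/SE 1, 2 and 3 and 7, 8 and 7 in WT 1, 2 and 3, over 14 regions. Of its 4 listed starts, the first pair lies in the region chr11:98937452-98938150, which also belongs to the predicted gene Gm46294. That region ranked at 72.0, 77.9 and 76.3 in SE/SE and at 70.3, 69.9 and 60.7 in WT. The third start had no peak, and the fourth had a peak at percentile 0.319 in SE/SE 3 alone. Its SE/SE-only regions were 3, and the strongest of all 9 was chr11:98963330-98964025, at percentiles 36.2, 49.0 and 53.6, the region that stayed SE/SE-only at equal list length. The other 2, chr11:98941964-98942462 and chr11:98972328-98972498, ranked between 2.95 and 31.2.

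A region between Cdc6, a DNA replication gene, and Rara, chr11:98925221-98926393, varied in the number of peaks over it, with an unsplit peak in SE/SE libraries only. It ranked at 70.9, 82.3 and 82.7 in SE/SE 1, 2 and 3 and at 57.6, 62.9 and 55.5 in WT 1, 2 and 3. SE/SE 2 and 3 each had 1 peak over it, whereas SE/SE 1 and all 3 WT libraries had 2 peaks, of which only the higher-coordinate one has its summit nearer to Rara than to Cdc6. The signal value is tied to peak width, and the widths of the Rara-side peaks were 573, 1173 and 1000 bp in SE/SE against 445, 359 and 344 bp in WT. How far the split of this region moves its rank was not tested.

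Rarg, at chr15:102234938-102257522, had 5, 4 and 5 peaks in SE/SE and 2, 3 and 2 in WT. Its shared region, chr15:102247537-102247990, ranked at 37.9, 42.8 and 51.0 in SE/SE, against 17.2, 30.3 and 24.1 in WT. A peak within 1 kb of its lower-coordinate end, chr15:102235731-102235993, was SE/SE-only, at percentiles 4.33, 11.2 and 29.9. Rarg was the 1 member with gene-end peaks in all 3 SE/SE and no WT library (0.859% of all genes), and with gene ends drawn at 500 bp there was none. Rara had a gene-end peak in SE/SE 2 alone. A peak at the inner of the listed Rarg starts was found in SE/SE 1 and 3, and the outer Rarg start had none in any library.

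Rxra, the partner of the other receptors, at chr2:27676445-27763319, had 4, 5 and 6 peaks in SE/SE and 2, 3 and 2 in WT. Its first listed start, in a window with a GC content of 83.0%, lies in chr2:27676704-27677957. That region ranked at 75.1, 78.1 and 82.1 in SE/SE and at 67.5, 70.4 and 69.5 in WT. An inner region, chr2:27740121-27740590, had peaks 458, 470 and 461 bp wide in SE/SE and 238, 235 and 232 bp wide in WT, with percentiles of 64.9, 65.5 and 66.1 in SE/SE and 55.4, 54.2 and 49.6 in WT. Ranked only among regions found in all 6 libraries, its difference was −0.00547 points. Widths over all such regions were not taken. The 2 SE/SE-only regions of Rxra were chr2:27699625-27699826, at percentiles 26.8, 25.3 and 32.6, and chr2:27771974-27772171, at 14.9, 25.7 and 40.1.

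Crabp1, the binding protein gene, had 3, 4 and 3 peaks in SE/SE and 2, 3 and 2 in WT, a ratio of the means of 1.43, in 4 regions. Its start, chr9:54764596-54764901, had the widest difference in percentile of the 21 shared member regions. It ranked at 42.0, 50.5 and 53.1 in SE/SE 1, 2 and 3 and at 15.3, 37.5 and 4.60 in WT 1, 2 and 3. The WT libraries spread from 4.60 to 37.5, more than the SE/SE libraries did. The groups did not overlap, and SE/SE stood higher in this way at 75.9% of all regions found in all 6 libraries. Ranked only among those regions, the start differed by 7.45 points and the groups overlapped (exact permutation p = 0.2). A region 11999 bp outside the gene, chr9:54752400-54753053, ranked at 61.2, 62.7 and 66.1 in SE/SE and at 47.8, 47.3 and 36.6 in WT.

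Of the 15 listed starts of 9 members, 5 had a peak in all 6 libraries (33.3%, against 52.9% of all windows) and 1, that of Aldh1a2, in all 3 SE/SE and no WT library (0.677% of all windows). None had the opposite pattern (0.0% of all windows). A further 5 starts had no peak in any library (33.3%, against 41.8% of all windows). By gene ends, 5 members had a peak within 1 kb in all 6 libraries (55.6% of all protein-coding genes), namely Aldh1a2, Aldh1a3, Cyp26c1, Rxra and Crabp1. Aldh1a1 and Rarb had none in any library, as did 38.9% of all genes, the Rarb start being far from either end of its annotated span.

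**Figure D4:**
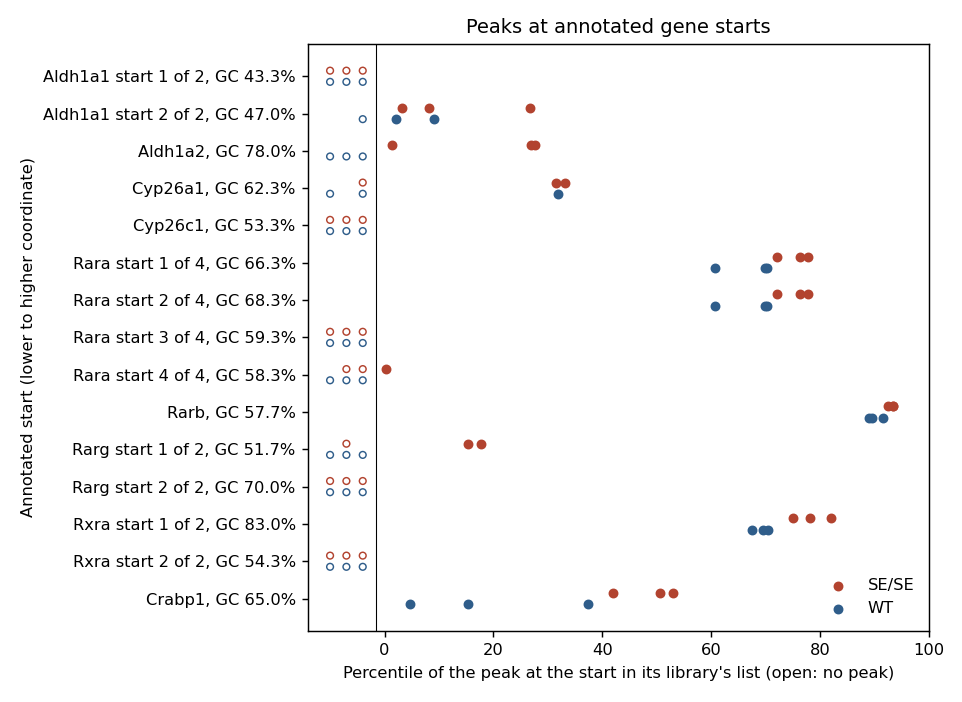
Percentile of the peak that overlaps each of the 15 listed start windows (rows, with the window's GC content) in the 3 SE/SE libraries (red) and the 3 WT libraries (blue); open circles at the left mark libraries without a peak. The Rarb start lies near 90 in all 6 libraries, the Aldh1a2 start has 3 red points and no filled blue point, and 5 starts have open circles alone.

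Across the 21 shared member regions, those found in all 6 libraries, percentiles were higher in every SE/SE than in every WT library at 19 (75.9% of all 24370 such regions) and higher in every WT than in every SE/SE library at 0 (0.62%). The median difference was 12.4 percentile points for the members, from 3.02 to 29.4, and 9.52 for all such regions. The exact permutation p of the 19 was 0.1, the smallest possible, with 0.131 after Benjamini-Hochberg adjustment over the 24370 regions. None of the 24370 passed (0.0%), with 0 at an unadjusted p under 0.05. Because a percentile depends on the length of its list, the shared regions were also ranked among themselves.

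Ranked only among the 24370 shared regions, the members no longer leaned to SE/SE. The median difference was −0.01 percentile points for the members and −0.49 for all shared regions. Every SE/SE library stood above every WT library at 2 member regions (12.3% of all such regions), the Rara region beside Cdc6 with a difference of 15.9 points and the outer Crabp1 region with 7.15. Every WT library stood above every SE/SE library at 3 (18.6% of all such regions). These were chr7:66450106-66450285 of Aldh1a3 with −9.92 points, the distant Cyp26a1 region with −13.0 and chr11:98960219-98960697 of Rara with −8.93. Each of the 5 had an exact permutation p of 0.1, and an adjusted p of 0.323 over all shared regions.

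**Figure D5:**
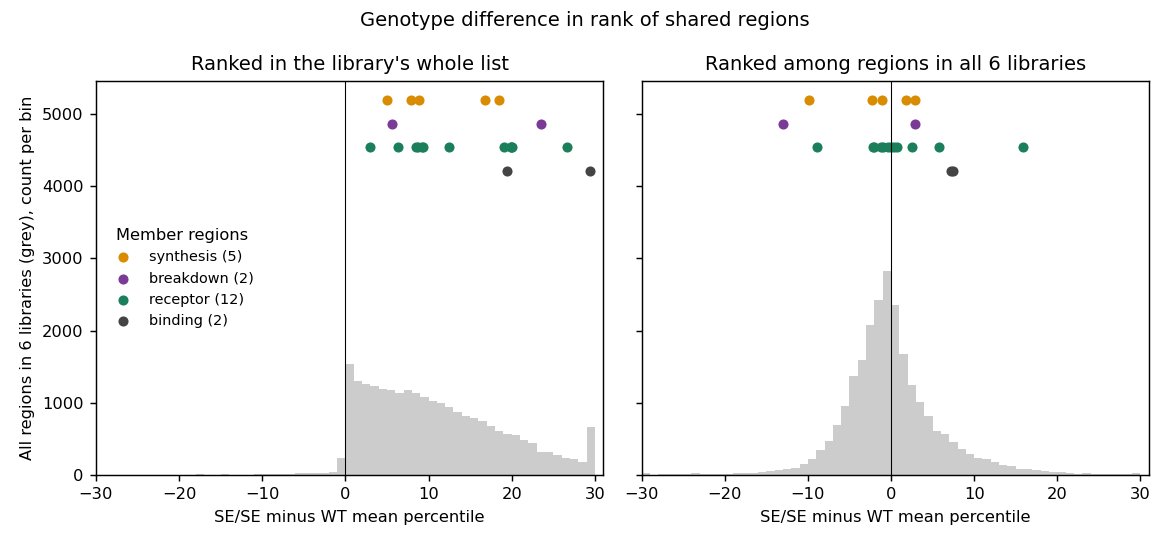
Difference of the mean percentile, SE/SE minus WT (x axis, in percentile points), of regions with a peak in all 6 libraries. Grey bars count all 24370 regions per bin of 1 point (y axis; the outermost bins hold everything beyond), and coloured points mark the 21 member regions by class, at heights that carry no value. On the left, ranked in whole lists, all points lie above 0; on the right, ranked among shared regions, they lie on both sides of 0.

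The joint lists, 1 per genotype, held 138 member peaks in SE/SE and 134 in WT, closer in number than in the single libraries. All 60 member regions had a peak in both joint lists, the 9 SE/SE-only regions included. At those 9 the joint percentiles ran from 67.6 to 88.1 in SE/SE and from 64.0 to 86.8 in WT. The 9 were picked by their lack of a peak in WT libraries. The joint SE/SE list is also longer, at 120772 against 104991 peaks. The higher SE/SE percentiles there are thus no separate result. Peaks in the joint SE/SE list alone numbered 22 (15.9%, against 22.0% of that list) and in the joint WT list alone 9 (6.72%, against 6.28% of that list). None of these had a peak in any library, and the highest ranked at 38.1 in SE/SE, in Cyp26c1, and at 31.6 in WT, near Crabp1. Joint member peaks with no peak in any library numbered 85 (61.6%, against 66.0% of that list) in SE/SE and 80 (59.7%, against 60.5% of that list) in WT. With 1 joint list per genotype these differences have no replicate check.

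Among 25 other genes of the pathway the lean to SE/SE had the same direction. They had 72, 80 and 80 peaks in SE/SE and 57, 61 and 48 in WT. Of their 90 regions, 44 were in all libraries (48.9%), 6 were SE/SE-only (6.67%, under the 8.23% of all regions) and 0 WT-only. More peaks in every SE/SE than in every WT library were found at 7 of the 25 genes. That is 28.0%, counting Bco1 and Rarres2, which had no peak in any library. The share was 15.2% of all genes with a peak in any library and 24.3% of genes in the members' range of mean peak number. The opposite was found at 0 of the 25, and 0 passed the adjusted threshold. Genes with a SE/SE-only region included Rdh10, which oxidises retinol to retinaldehyde, the coactivator gene Ncoa3, the coregulator gene Nrip1 and the breakdown gene Cyp26b1. Cyp26b1, the third enzyme of the Cyp26 family, had 5, 4 and 7 peaks in SE/SE and 3, 2 and 1 in WT, and its 2 groups did not overlap.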

How the data were processed

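ATAC-seq peak lists of 6 retinal libraries (3 SE/SE, 3 WT) and 2 joint genotype lists were used. Genrich 0.5, BWA, cutadapt, bedtools 2.27.0 and limma, and the build GRCm38 (mm10), stand in the submitters' processing notes with no role or order; trimming, duplicate removal, the Tn5 shift and how the joint lists were made are not given in the sources used here. The deposited narrowPeak files give the authors' signal value for each peak (lowest value 20), unscaled between libraries, and the authors' −log10 p-values. The score column equals 1000 times the signal value over peak width, within 1 and capped at 1000, for 100% of peaks in each list, which ties signal to width. Signal and p were ranked only within a list, and the authors' peak positions and summits, as deposited, placed the peaks. Precision is limited by 3 libraries per genotype and by unknown depth.

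The members and all lists of genes were chosen with earlier results of these data known. All 10 members matched the RefSeq gene table of GRCm38.p6 by symbol. Peaks of the 6 libraries were merged into regions where they shared 1 bp or more. Genotypes were compared with an exact two-sided permutation test (20 assignments of libraries), adjusted by the Benjamini-Hochberg method over all genes or all shared regions, with a threshold of 0.05. All 10 members are named by rule; of the 25 other pathway genes, those with most genotype-specific regions are, though some of these are not reported here. Replicate numbers were not used to pair libraries in the main comparison. Deviations of same-numbered libraries correlated at 0.0102, 0.117 and −0.194, and those of differently numbered libraries from −0.288 to 0.269. These values cannot show whether same-numbered libraries were handled together. Alternatives changed the list length, ranking, signal minimum, overlap, region definition, gene distance, competing genes and libraries. Sequences are from the RefSeq window table; sequences of regions away from starts, exons and introns were not used here. Calculations used Python 3.11.15, numpy 2.4.6, pandas 2.3.3 and scipy 1.17.1 and were tested on simulated data.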

Additional observations from a re-analysis of the deposited data

How the results depend on the processing

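Of 637 values under alternatives, 603 were counted as the same, 14 as moved and 20 as reversed. Most moves and reversals came at equal list length or with ranks among shared regions, and the cause of each was not tested. For a single gene or region, a value counted as the same can still be much smaller. At equal list length the difference in Rara peaks fell from 4.33 to 0.333 and that of Rarb from 3.0 to 0.333, both counted as the same. At equal list length (27873 peaks), SE/SE-only regions numbered 1, members with more peaks in every SE/SE library 0, shared regions higher in every SE/SE library 2 and in every WT library 2, members with SE/SE-only gene-end peaks 0, and the median percentile difference was 1.09. Differences that reversed there were those in peaks of Aldh1a2 (−0.333), Aldh1a3 (−0.667) and Cyp26a1 (−0.667), and in percentile of the Aldh1a3 gene-end region (−1.70), the distant Cyp26a1 region (−11.6) and the Rara regions starting at 98929401 (−1.59), 98937452 (−0.12) and 98960219 (−7.49).

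Ranked among shared regions, 2 regions were higher in SE/SE and 3 in WT, with a median of −0.00547. Regions that reversed were those of Aldh1a2 (−1.03), the Aldh1a3 gene end (−2.24) and the Aldh1a3 region starting at 66450106 (−9.92), the distant Cyp26a1 region (−13.0), Rara regions starting at 98929401 (−2.14), 98936172 (−1.21), 98937452 (−0.32) and 98960219 (−8.93), the Rarb region starting at 16822652 (−2.03), Rarg (−0.996) and the inner Rxra region (−0.00547). With a signal value of at least 50, 3 members had gene-end peaks in all libraries. With 50% of the region covered, 11 regions were in all libraries. With gene ends within 500 bp, 0 members had SE/SE-only gene-end peaks. Without WT 2 and SE/SE 1, an alternative chosen after seeing the data, 17 regions were SE/SE-only. Fewer libraries make that pattern easier to meet. For these last settings the shares over all regions or genes are not given here.

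With single libraries left out, SE/SE-only regions ranged from 9 to 13, regions in all libraries from 21 to 25, members with more peaks in every SE/SE library from 7 to 9, shared regions higher in SE/SE from 19 to 21, the median difference from 12.1 to 14.7 and members with gene-end peaks in all libraries from 5 to 6. With the replicate number as a block, whose smallest exact permutation p is 0.25, the counts of 7 members and 19 shared regions and the median of 12.4 were as without it. Whether the numbers pair the libraries is not known. Shares over all regions or genes with libraries left out are not given here. Depth behind a missing peak is unknown, so absence of a peak is absence from a list.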
